A study of Mus musculus with 18 samples.

Results

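The question addressed here was whether the liver response to combined loss of Arntl (Bmal1) and Hnf4a differed between mice of 10 weeks and mice of 45 weeks that had been kept on a high-fat diet. The answer was sought in 12 of the 18 RNA sequencing libraries of the study, the 3 replicates of each of 4 groups, all named with the prefix BH. For each gene, the difference between KO and WT at 10 weeks (BH-KO minus BH-WT) was subtracted from the difference between KO and WT in the high-fat setting (BH-HF-KO minus BH-HF-WT). This quantity, the interaction, is given on the log2 scale. A positive value means that KO relative to WT was higher in the high-fat setting than at 10 weeks, and a negative value that it was lower. The test covered 13112 of the 52636 genes of the count table, those with enough counts.

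All 4 groups carry 1 strain label, with the alleles Arntltm1Weit and Hnf4atm1.1Gonz for conditional deletion and Albtm1(cre/ERT2)Mtz, a Cre recombinase at the albumin gene that tamoxifen activates. Albumin is made by hepatocytes, so the deletion is aimed at these cells, while the RNA came from whole liver. The sources used here do not say what set the WT mice apart from the KO mice. Tamoxifen (10 mg/mL, 5 days) was given at an age of 8 weeks to WT and KO mice alike, and every liver was taken at ZT8, in the light phase. BH-WT and BH-KO livers were taken at 10 weeks of age, which is 2 weeks past the tamoxifen. BH-HF-WT and BH-HF-KO livers were taken at 45 weeks of age, which is 37 weeks past it, and their donors had eaten a high-fat diet for 35 weeks. Diet, age and time since deletion therefore change together between the settings and cannot be told apart. In whole tissue, fewer cells of a type and less RNA per cell cannot be told apart either.

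BMAL1, the product of Arntl, pairs with CLOCK or its relative NPAS2 and activates genes through E-box sequences. Among its targets are the PER and CRY repressors, which act back on the pair, and the nuclear receptors REV-ERBα and REV-ERBβ (Nr1d1 and Nr1d2), which repress Arntl, Clock, Npas2 and Cry1. DBP, TEF and HLF carry the rhythm to further genes through D-box sequences. HNF4A is a nuclear receptor that maintains the expression of many hepatocyte genes, among them those of bile acid, drug and lipoprotein metabolism.

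Total counts per library lay between 6846470 and 9816120. Single libraries touch the results that follow. BH-KO replicate 1 stood apart from the other BH-KO libraries. Over 2586 genes chosen without it, it lay at 0.321 of the way from the BH-WT mean (0) to the mean of BH-KO replicates 2 and 3 (1), and the 6 high-fat libraries lay between 0.042 and 0.104. BH-WT replicate 2 was high in macrophage markers (median of 25 tested markers 1.08 above the BH-WT mean on the log2 scale, against -1.38 and 0.23 in the other BH-WT libraries) and low in major urinary protein genes. Lead counts are therefore given with and without these libraries.

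The targeted genes were read over their whole length, and since deletion removes only part of a gene, such counts check the labels weakly. Arntl (ENSMUSG00000055116, mm10 chromosome 7, 113207465 to 113314126) gave 0.393, 0.694 and 0.759 CPM (counts scaled to the size of the library) in BH-WT and 16.5, 21.3 and 22.9 in BH-KO. In the high-fat setting it gave 0.975, 1.29 and 1.86 CPM in BH-HF-WT and 0.827, 2.34 and 1.27 in the libraries labelled BH-HF-KO. The 3 BH-KO libraries were above all others, and the 2 high-fat groups overlapped. The interaction of Arntl was -4.90 ± 0.56 (SE), with an adjusted p of 0.00163. Here and below, each adjusted p-value is that of the quasi-likelihood test in edgeR, adjusted by Benjamini and Hochberg's method over all 13112 genes; they measure a difference against the spread between replicates, which the labels do not say came from separate mice. The raised Arntl transcript of BH-KO was thus not seen in the libraries labelled BH-HF-KO, so this transcript does not bear out their label. Albumin was looked at after its values were seen, and its KO effect in the high-fat setting did not pass. In contrast to Arntl, it took 2.68 to 3.72% of counts in BH-HF-KO and 6.18 to 7.71% in BH-HF-WT. The reason was not tested, and the point bears on every direction drawn from the libraries labelled BH-HF-KO. Hnf4a (ENSMUSG00000017950, chromosome 2, 163506808 to 163572910) gave 738, 839 and 733 CPM in BH-WT, and 822, 477 and 472 in BH-KO. It gave 729.9, 735 and 780.2 CPM in BH-HF-WT, and 788, 902 and 763 in BH-HF-KO. Only BH-KO replicates 2 and 3 lay below the rest. The interaction of Hnf4a was 0.51 ± 0.31 (adjusted p = 0.369), and 0.83 ± 0.18 (adjusted p = 0.00576) without BH-KO replicate 1.

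The KO effect differed between the settings for 431 genes (3.29% of those tested) at an adjusted p under 0.05, of which 231 had a positive (1.76%) and 200 a negative (1.53%) interaction. The 431 genes had a median absolute interaction of 1.4 on the log2 scale, and 408 of them code for protein. Set side by side, the KO effect at 10 weeks passed for 2979 genes (22.7%), 1543 higher (11.8%) and 1436 lower (11%). The KO effect in the high-fat setting passed for 0 genes (0%) in edgeR, with 362 at an unadjusted p under 0.05, and for 1 gene in DESeq2. The spread was estimated over the 4 groups together, and without BH-KO replicate 1 the count at an unadjusted p under 0.05 was 635. Both counts were below the share of 0.05 that such a threshold passes where nothing differs. The change from 10 weeks to the high-fat setting passed for 465 genes (3.55%) in WT, 188 up (1.43%) and 277 down (2.11%). In KO it passed for 3519 (26.8%), 1589 up (12.1%) and 1930 down (14.7%). These comparisons share libraries with each other and with the interaction. The 2 KO effects share none, and across the 13112 genes they correlated at r = 0.134, genes not being independent replicates. Among the 431 genes the median absolute KO effect was 1.39 at 10 weeks and 0.136 in the high-fat setting, beside 0.398 and 0.137 over all tested genes.

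**Figure D1:**
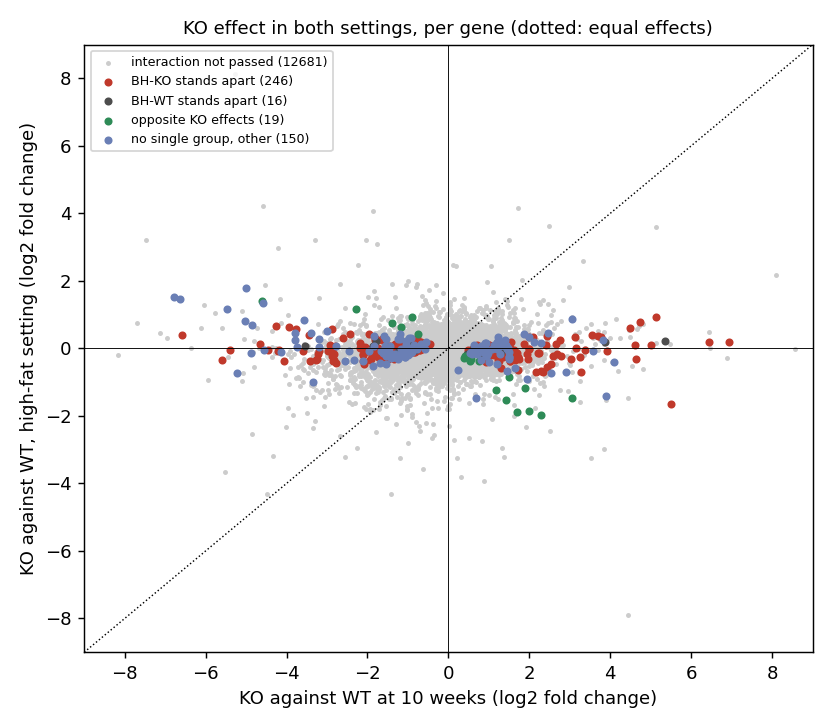
KO effect (log2 fold change of KO against WT) at 10 weeks on the x axis and in the high-fat setting on the y axis, 1 point per gene. The coloured points are the 431 genes that passed the interaction test, by the group that stood apart; they spread along the x axis and lie near 0 on the y axis, and the dotted line marks equal effects.

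Each of the 431 genes was then assigned to the group that drove it. A group was said to stand apart for a gene where the means of the other 3 groups, in log2 CPM, spanned no more than the interaction divided by 3. This describes the same libraries that gave the interaction and is no further test. BH-KO stood apart for 246 genes (57.1%), higher than the other groups for 111 and lower for 135. By the same rule it stood apart for 16.4% of all tested genes. BH-WT stood apart for 16 genes (3.71%), higher for 8 and lower for 8, beside 5.57% of all tested genes. Neither BH-HF-WT nor BH-HF-KO stood apart for any of the 431, while over all tested genes they did so for 0.946% and 0.984%. For 19 genes (4.41%) the KO effects were opposite in sign and each at least the interaction divided by 3, beside 11.5% of all tested genes. The remaining 150 genes (34.8%) had no single group apart, beside 64.5% of all tested genes. For 104 of these, both high-fat groups lay between BH-WT and BH-KO, and the group closest to standing apart was BH-KO for 122, BH-WT for 26 and BH-HF-KO for 2.

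All 3 BH-KO libraries lay outside the range of the other 9 for 380 of the 431 genes, against 19.8% of all tested genes (10.5% above and 9.3% below), but the same libraries chose the 431. The genes nearest the limit were Crym and Hcfc1r1 (the other 3 means spanned 0.325 of the interaction) inside it, and Neu1 (0.333) and Fem1c (0.334) outside it. Without BH-KO replicate 1, 2859 genes passed (21.8%), 1604 positive (12.2%) and 1255 negative (9.57%), all 431 among them. BH-KO then stood apart for 1638 (57.3%), BH-WT for 103 and BH-HF-KO for 1. Without BH-WT replicate 2, 267 genes passed (2.04%), of which 239 were among the 431, and BH-KO stood apart for 65.2%. Leaving out any single library other than BH-KO replicate 1 lowered the count, to 149 at the least without BH-HF-KO replicate 1. It was 185 and 196 without BH-WT replicates 1 and 3, 203 and 166 without BH-KO replicates 2 and 3, 189, 218 and 202 without BH-HF-WT replicates 1, 2 and 3, and 260 and 304 without BH-HF-KO replicates 2 and 3. DESeq2 called 942 genes. Of the 63 passing genes that the naming rule chose, 29 passed without any single library, among them Mcm10, Nr1d2, Slc2a5, Nr1d1, Cebpa, Chka, Tef, Mal2, Fbxo21, Dbp, Slc5a6, Ppfia1, Cdkn1a, Arntl, Klb, Slco1a4, Hectd2os, Per3, Gstm3, Nckap5, Amigo2, Eepd1, Clock, Slc2a2, Bhlhe41, Lpl, Sgk2 and Mvk. The other 34 reached adjusted p-values of 0.0506 to 0.13 when the library they depended on most was left out. The library whose removal cost most of these calls was BH-HF-KO replicate 1 (32 lost), and removing BH-KO replicate 1 cost 0.

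**Figure D2:**
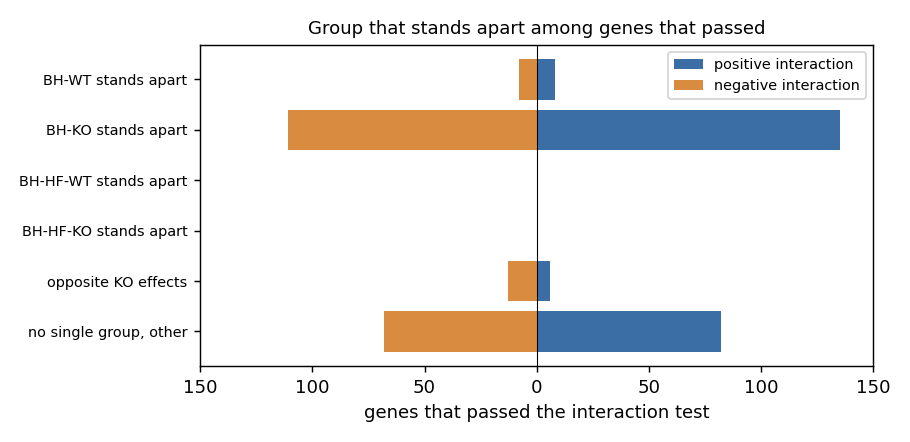
Number of genes that passed the interaction test (x axis, negative interactions to the left, positive to the right) for each pattern of group means on the y axis. BH-KO stood apart for 111 genes with a negative and 135 with a positive interaction, BH-WT for 8 and 8, and neither high-fat group for any.

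Clock genes of each role passed. Of 24 tested clock genes on 3 lists, 13 passed, beside 3.29% of all tested genes. BH-KO stood apart for all 13, beside 57.1% of the 431 passing genes. Its 3 libraries lay outside the range of the other 9 for all 13, as they did for 380 of the 431. Among activators, Arntl and Clock had a negative interaction, that is, they were high in BH-KO. Among 11 repressors, Nr1d1, Nr1d2, Per3, Ciart and Bhlhe41 had a positive interaction, being low in BH-KO, and Cry1 a negative one. Among 8 outputs, Dbp, Tef and Usp2 were positive and Lonrf3 negative. The median interaction was 0.64 for repressors and 0.77 for outputs, beside -0.04 for all tested genes. The lists were drawn up with earlier results of these data known.

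Because clock genes moved together in BH-KO, the promoters of 4 of them are shown, 2 low in BH-KO that hold the E-box (Ciart, Tef), 1 high in BH-KO that holds it (Cry1), and 1 low in BH-KO that holds the D-box instead (Per3). The sequences are the 250 bases before the RefSeq start site (GRCm38.p6), read 5′ to 3′ on the strand of the gene, and for Tef those before the second of 2 listed start sites. Capitals mark CACGTG in the first 3 and TTATGTAA in Per3.
Ciart, chr3:95882229-95882478, minus strand: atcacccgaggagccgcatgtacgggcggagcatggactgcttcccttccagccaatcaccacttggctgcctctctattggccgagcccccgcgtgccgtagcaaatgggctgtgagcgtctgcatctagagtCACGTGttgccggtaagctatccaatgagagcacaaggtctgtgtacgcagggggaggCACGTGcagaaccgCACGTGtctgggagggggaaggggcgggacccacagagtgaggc
Tef, chr15:81811164-81811413, plus strand: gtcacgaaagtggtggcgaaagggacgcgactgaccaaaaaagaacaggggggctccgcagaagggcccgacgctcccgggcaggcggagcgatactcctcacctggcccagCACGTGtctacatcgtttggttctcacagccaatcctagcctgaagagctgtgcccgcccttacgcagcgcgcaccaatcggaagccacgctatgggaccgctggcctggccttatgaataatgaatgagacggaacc
Cry1, chr10:85185055-85185304, minus strand: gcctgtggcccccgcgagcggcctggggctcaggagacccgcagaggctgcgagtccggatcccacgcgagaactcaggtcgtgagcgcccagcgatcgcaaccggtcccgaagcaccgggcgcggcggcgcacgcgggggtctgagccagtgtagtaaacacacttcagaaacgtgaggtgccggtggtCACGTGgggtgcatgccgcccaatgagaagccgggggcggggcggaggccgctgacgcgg
Per3, chr4:151044666-151044915, minus strand: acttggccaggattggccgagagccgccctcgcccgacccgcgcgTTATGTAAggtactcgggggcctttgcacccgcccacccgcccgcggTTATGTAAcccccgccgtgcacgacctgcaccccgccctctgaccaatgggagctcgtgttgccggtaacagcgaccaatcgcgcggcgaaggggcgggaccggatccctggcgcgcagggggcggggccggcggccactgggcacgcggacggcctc
Ciart holds CACGTG 3 times, Tef and Cry1 once each, and Per3 holds TTATGTAA 2 times. Searched on both strands, CACGTG was present before the start of 5 of the 12 passing clock genes with an entry (41.7%), beside 9.98% of the 9710 tested genes with one. Over all tested clock genes with an entry, passing or not, it was present in 7 of 20 (35%). TTATGTAA was present in 1 of the 12, beside 0.608%. Among genes for which BH-KO stood apart, CACGTG was present in 17 of 103 low genes (16.5%) and 9 of 79 high genes (11.4%). The letters TAGGTCA, the core bound by REV-ERB, were in 0 of the 12, beside 2.25%, and CAAAGTCCA, the core bound by HNF4A, in 0 of the 12, beside 0.556%. Over all 20 tested clock genes with an entry, TAGGTCA was in 1 (5%) and CAAAGTCCA in 0. With shares this low over all tested genes, 0 of 12 tells nothing either way. A match describes the letters of this window and is not evidence of binding.

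Clock, the partner of BMAL1, gave 28.3, 34 and 33.4 CPM in BH-WT and 110.8, 84 and 86.8 in BH-KO, against 28.2 to 42.7 in the 6 high-fat libraries. Its interaction was -1.37 ± 0.22 (adjusted p = 0.00962). The BH-KO libraries were the highest 3 of the 12. Npas2 did not pass (-5.93 ± 1.61, adjusted p = 0.0693), although it gave 45.4, 36.2 and 38.5 CPM in BH-KO and from 0 to 1.16 in the other 9 libraries. It passed without BH-KO replicate 1 (adjusted p = 0.0269). Rora, a nuclear receptor that activates Arntl, had an interaction of -0.15 ± 0.27 (adjusted p = 0.786).

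Nr1d2, which encodes REV-ERBβ, had the smallest adjusted p among clock genes (interaction 2.86 ± 0.19, adjusted p = 4.6e-05). It gave 191, 166 and 185 CPM in BH-WT, 24.8, 22.1 and 27.5 in BH-KO, 183, 145 and 195 in BH-HF-WT, and 169, 182 and 171 in BH-HF-KO. The BH-KO level was thus low and the other 3 groups overlapped. Nr1d1, for REV-ERBα, gave 120.5, 105 and 115 CPM in BH-WT and 6.62, 5.81 and 5.37 in BH-KO. It gave 52.9, 20.8 and 51.3 CPM in BH-HF-WT and 58.4, 75.3 and 62.5 in BH-HF-KO. The high-fat groups therefore lay between the 10-week groups without reaching BH-WT, and the interaction was 4.91 ± 0.41 (adjusted p = 0.000478). Per3, a period repressor, gave 108, 102 and 125 CPM in BH-WT and 8.6, 21.5 and 17 in BH-KO, with 72 to 111 in the high-fat libraries (2.64 ± 0.38, adjusted p = 0.00645). Cry1 ran the other way, with 9.05, 11.9 and 11.2 CPM in BH-WT and 79.9, 105.8 and 120.1 in BH-KO, and 3.81 to 19.2 in the high-fat libraries (-3.49 ± 0.62, adjusted p = 0.0181). It no longer passed without BH-WT replicate 1 (adjusted p = 0.0573).

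Ciart, which encodes the repressor CHRONO, gave 20.7 to 35.8 CPM in BH-WT, from 1.13 to 4.45 in BH-KO and from 21.4 to 51.7 in the high-fat libraries (2.94 ± 0.59, adjusted p = 0.0274). Bhlhe41 (DEC2), a repressor at E-boxes, gave 14.5 to 18.6 CPM in BH-WT, from 0.084 to 1.83 in BH-KO and from 4.81 to 11.7 in the high-fat libraries (4.80 ± 0.79, adjusted p = 0.0104). Dbp, a D-box activator, gave 159, 111 and 110.5 CPM in BH-WT and 2.54, 6.44 and 7.72 in BH-KO, with 75 to 113 in the high-fat libraries (4.41 ± 0.44, adjusted p = 0.00105). All 3 were low in BH-KO without overlap. Tef, its relative, gave 251 to 314 CPM in BH-WT, from 62 to 71.9 in BH-KO and from 240.2 to 312.3 in the high-fat libraries (1.94 ± 0.19, adjusted p = 0.000671). Usp2, a deubiquitinase, had an interaction of 1.63 ± 0.34 (adjusted p = 0.0297), and Lonrf3, a RING finger protein, one of -2.99 ± 0.62 (adjusted p = 0.0274). Leaving out single libraries, 9 of the 13 passed every time. Cry1, Ciart, Usp2 and Lonrf3 did not, their highest edgeR adjusted p being 0.0573, 0.0721, 0.0816 and 0.0795. With each of the 12 libraries left out in turn, BH-KO still stood apart for Usp2 in 7 fits and for Nr1d1 and Lonrf3 in 10 fits each.

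Among clock genes that did not pass were Per1 (0.26 ± 0.34), Per2 (0.13 ± 0.35), Cry2 (0.64 ± 0.19, adjusted p = 0.0904) and Hlf (0.47 ± 0.35). In their distance from BH-WT, clock genes set BH-KO replicate 1 no nearer to BH-WT than the other BH-KO libraries. The median distance of the 11 repressors from the BH-WT mean, regardless of sign, was 2.85, 2.36 and 2.64 on the log2 scale in BH-KO replicates 1 to 3, and 0.28 to 0.59 in the high-fat libraries.

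**Figure D3:**
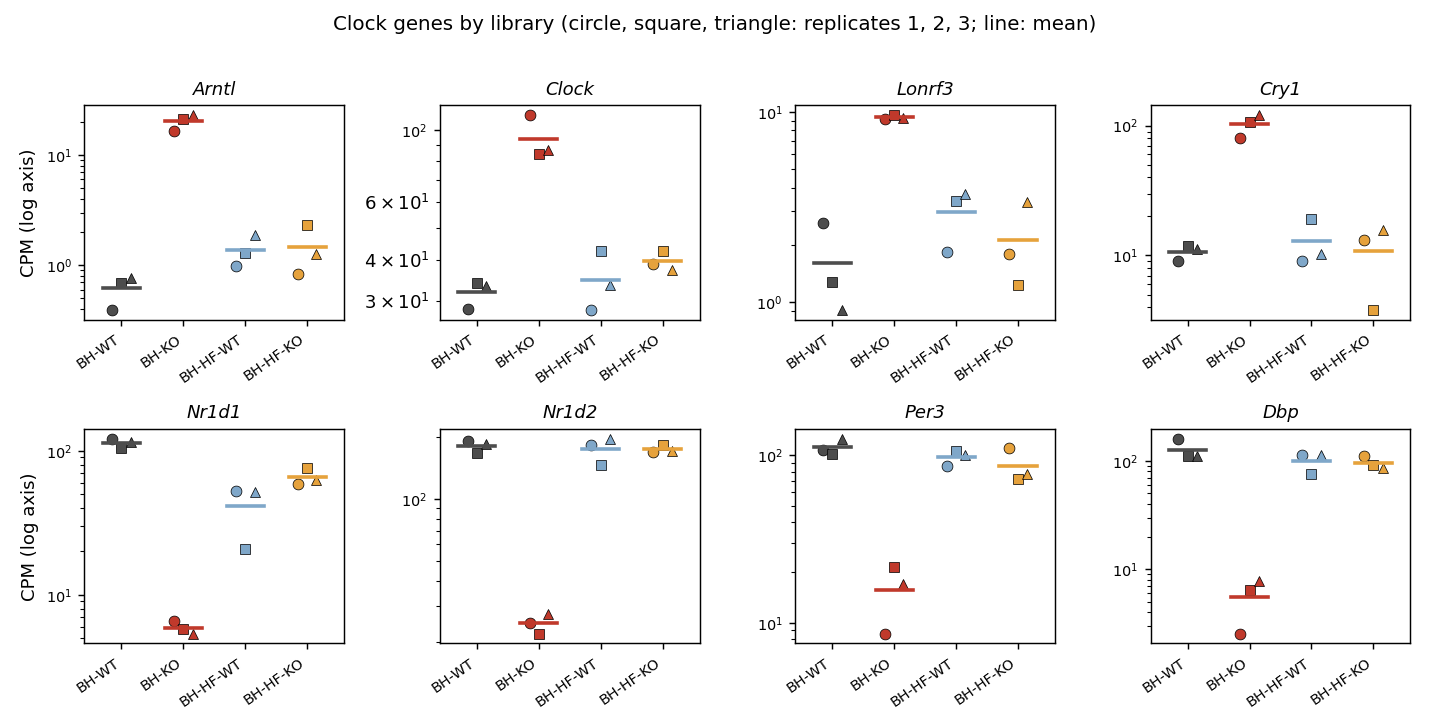
CPM on a log axis in each library for 8 clock genes, with replicates 1, 2 and 3 as circle, square and triangle and the group mean as a line. The BH-KO libraries (red) lie above all others for Arntl, Clock, Lonrf3 and Cry1 and below all others for Nr1d1, Nr1d2, Per3 and Dbp.

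Outside the clock, genes high in BH-KO relative to the other 3 groups included Cdkn1a (ENSMUSG00000023067, chromosome 17, 29090976 to 29100727), which encodes the cell cycle inhibitor p21. It gave 0.787, 1.16 and 0.911 CPM in BH-WT and 90.8, 129 and 139 in BH-KO. It gave 1.71, 3.87 and 0.665 CPM in BH-HF-WT and 2.76, 1.35 and 3.17 in BH-HF-KO. BH-KO lay far above the other groups, which overlapped, and the interaction was -6.74 ± 0.71 (adjusted p = 0.00162). On the list of p53 targets and growth arrest genes, 4 of 23 passed, all negative, and the median interaction was -0.63. Ddit4, an inhibitor of mTORC1 (-2.99 ± 0.63, adjusted p = 0.029), Btg2, an antiproliferative cofactor (-2.41 ± 0.52, adjusted p = 0.0343), and Trp53inp1, a p53-induced stress protein (-1.91, adjusted p = 0.015; outside the naming rule), were the other 3. Btg2 counted among the 19 genes with opposite KO effects. Its BH-KO level (22.5, 35 and 42.8 CPM) overlapped that of BH-HF-WT (34.5, 16 and 18.1). Leaving out single libraries raised the adjusted p to at most 0.091 for Btg2 and 0.0789 for Ddit4. Mdm2, the p53 antagonist that p53 induces, had an interaction of -0.48 ± 0.17 and did not pass (adjusted p = 0.15). Without BH-KO replicate 1, 10 of the 23 passed, all negative, beside 9.57% of all tested genes with a negative call in that fit and 1.53% with all libraries.

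A run of glutathione transferases of the mu class, enzymes that conjugate electrophiles, was also high in BH-KO. Gstm3 (ENSMUSG00000004038, chromosome 3, 107963696 to 107969283) gave 32.5, 26.7 and 37.5 CPM in BH-WT and 303, 1124 and 949.6 in BH-KO, with 11 to 23.8 in the high-fat libraries. Its interaction was -4.53 ± 0.64 (adjusted p = 0.00645). Gstm2 (-4.01 ± 0.69, adjusted p = 0.0158) and Gstm1 (-2.32 ± 0.47, adjusted p = 0.0265) had the same pattern, and in all 3 BH-KO replicate 1 had the lowest BH-KO level. These genes are close paralogs, so reads may have been split between them. They were the 3 that passed, all negative, among 27 tested glutathione and NRF2 target genes, whose median interaction was -0.05. Over all tested genes 1.53% had a negative call. Without BH-KO replicate 1, 4 positive and 7 negative members of this list passed, beside 12.2% and 9.57% of all tested genes.

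Further genes high in BH-KO were Lpl, the lipase that releases fatty acids from lipoproteins (-3.96 ± 0.64, adjusted p = 0.0114), and Chka, a choline kinase of phospholipid synthesis (-3.43 ± 0.31, adjusted p = 0.000482). Lpl gave 26.5, 43.7 and 34.8 CPM in BH-WT, 235, 413 and 371 in BH-KO, and 11.6 to 45.7 in the high-fat libraries. Chka gave 14.9 to 17.2 CPM in BH-WT, from 156 to 264 in BH-KO and from 17 to 29.7 in the high-fat libraries. BH-KO was above all other libraries for both. Mal2, a transcytosis protein (-1.78 ± 0.17, adjusted p = 0.000671), and Ppfia1, a liprin scaffold protein (-1.11 ± 0.12, adjusted p = 0.00105), were moderately higher in BH-KO with little spread. Grhl1 (-4.97 ± 1.07, adjusted p = 0.0319), Tox2 (-4.21 ± 0.81, adjusted p = 0.0204) and Nckap5 (-7.17 ± 1.12, adjusted p = 0.00771) rested on few counts outside BH-KO, with 3 to 21 counts over the 3 libraries of each other group, so these values depend on how low counts are fitted and are no bound. Mcm4, a subunit of the replicative helicase, was the only one of 23 cell cycle genes to pass (-1.83 ± 0.45), beside 3.29% of all tested genes. Its adjusted p was just under 0.05. The call was kept without BH-KO replicate 1 and lost without any other single library (adjusted p up to 0.122). Without BH-KO replicate 1, 6 of the 23 passed, all negative, beside 9.57% of all tested genes.

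Genes low in BH-KO relative to the other 3 groups included 3 of sugar handling and the transcription factor gene Cebpa. Cebpa (ENSMUSG00000034957, chromosome 7, 35119293 to 35121928), which acts in hepatocyte differentiation, gave 449, 322 and 361 CPM in BH-WT and 83.4, 81.8 and 83.5 in BH-KO. It gave 415, 389 and 409 CPM in BH-HF-WT and 425, 401 and 387 in BH-HF-KO. The 3 BH-KO libraries nearly coincided, and the other 3 groups overlapped, with an interaction of 2.19 ± 0.20 (adjusted p = 0.000482). It was the only one of 21 liver-enriched transcription factors to pass, beside 3.29% of all tested genes. Without BH-KO replicate 1, 8 of them passed with a positive and 1 with a negative interaction, beside 12.2% and 9.57% of all tested genes. Among 24 genes of gluconeogenesis, glycogen and sugar entry, 3 passed, all positive, beside 1.76% of all tested genes with a positive call. The list median was 0.11. Without BH-KO replicate 1, 9 positive and 5 negative members of this list passed, beside 12.2% and 9.57% of all tested genes. Slc2a5, the fructose transporter GLUT5, gave 12.6 to 14.6 CPM in BH-WT, from 0.0907 to 0.705 in BH-KO and from 10.5 to 13.4 in the high-fat libraries (5.34 ± 0.45, adjusted p = 0.000432). Slc2a2, the glucose transporter GLUT2, gave 459 to 529 CPM in BH-WT, from 101 to 127 in BH-KO and from 327 to 690.5 in the high-fat libraries (1.72 ± 0.29, adjusted p = 0.00991). Gys2, liver glycogen synthase, had an interaction of 2.94 ± 0.58 (adjusted p = 0.0265), with 63.7, 26.4 and 17.6 CPM in BH-KO and from 179 to 404 in the other 9 libraries. For each of these sugar genes the BH-KO libraries lay below all others.

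Mcm10, a replication initiation factor, had one of the smallest p-values of all (4.13 ± 0.27, adjusted p = 4.6e-05). It gave 95.7, 77.2 and 94.9 CPM in BH-WT, 5.78, 4.63 and 4.37 in BH-KO, and 96.1 to 156 in the high-fat libraries. Its direction was opposite to that of Mcm4. Asl, an enzyme of the urea cycle, gave 503 to 642 CPM in BH-WT, from 165 to 212 in BH-KO and from 451 to 767 in the high-fat libraries (1.25 ± 0.26, adjusted p = 0.0269). It was the only one of 34 tested genes for urea synthesis or for the breakdown of amino acids to pass. Over all tested genes 3.29% passed. Without BH-KO replicate 1, 11 positive and 2 negative members of this list passed, beside 12.2% and 9.57% of all tested genes.

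**Figure D4:**
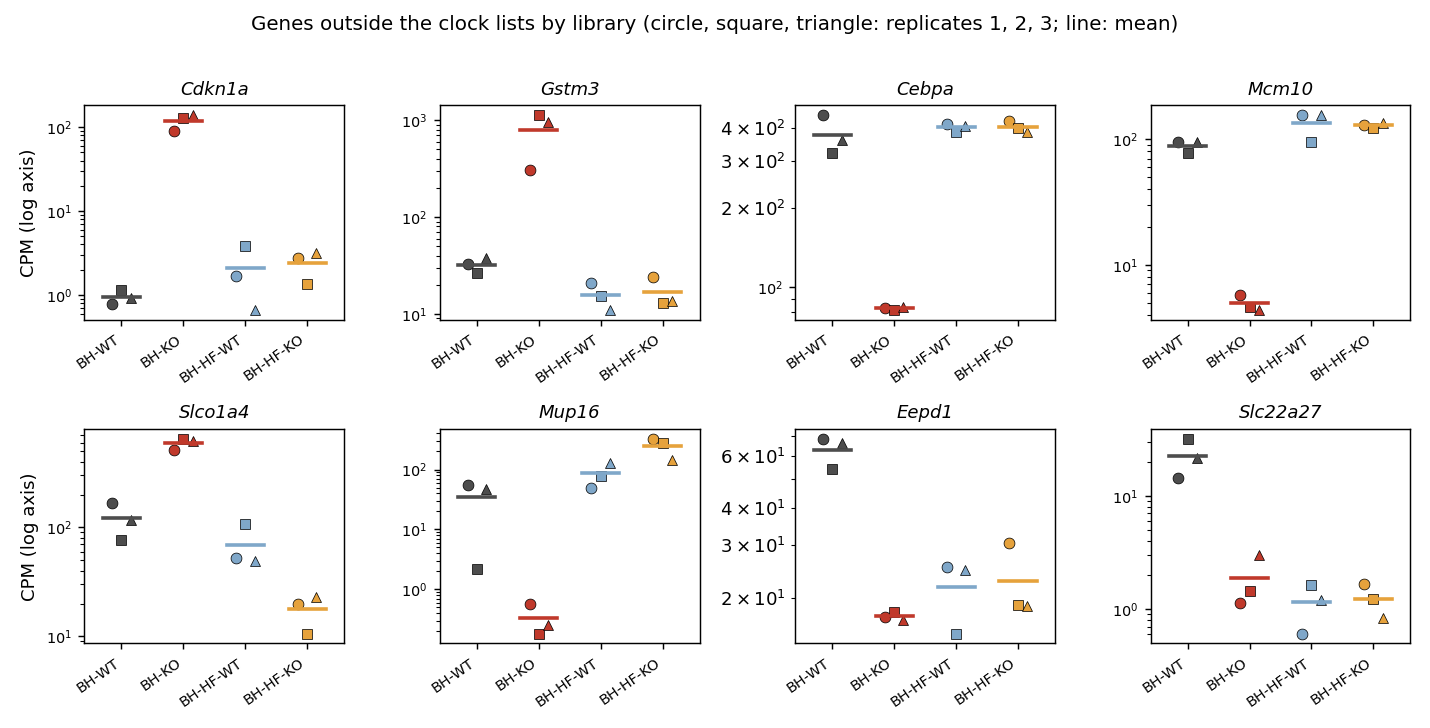
CPM on a log axis in each library for 8 genes outside the clock lists, with replicates 1, 2 and 3 as circle, square and triangle and the group mean as a line. BH-KO stands apart for Cdkn1a, Gstm3, Cebpa and Mcm10, BH-WT for Eepd1 and Slc22a27, and the KO effects of Slco1a4 and Mup16 have opposite signs in the 2 settings, that of Mup16 in the high-fat setting being too small for it to count among the 19 genes with opposite effects.

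For 19 genes KO livers were on opposite sides of WT in the 2 settings with each effect at least the interaction divided by 3, 13 of them higher than WT at 10 weeks and lower in the high-fat setting and 6 the reverse. Since no KO effect in the high-fat setting passed its own test, the second sign is a description. At 10 weeks the KO effect passed for 17 of the 19, Plin4 not among them (adjusted p = 0.059). Slco1a4, an organic anion transporter, gave 169, 76.7 and 117 CPM in BH-WT and 511, 646 and 625 in BH-KO. It gave 52, 106 and 49.3 CPM in BH-HF-WT and 19.7, 10.6 and 22.8 in BH-HF-KO. BH-KO was above and BH-HF-KO below every library of the other groups, and the interaction was -4.26 ± 0.55 (adjusted p = 0.00388). Igfbp1, a secreted binding protein of insulin-like growth factors, gave 9.11 to 28.9 CPM in BH-WT, from 55.5 to 72.3 in BH-KO, from 7.68 to 21.9 in BH-HF-WT and from 2.89 to 4.43 in BH-HF-KO (-3.59 ± 0.62, adjusted p = 0.0158). It no longer passed without BH-HF-KO replicate 1 (adjusted p = 0.0538). Plin4, a lipid droplet coat protein, gave 3.01 to 4.25 CPM in BH-WT, from 7.61 to 13.5 in BH-KO, from 3.46 to 19.6 in BH-HF-WT and from 3.91 to 4.68 in BH-HF-KO (-2.96 ± 0.70, adjusted p = 0.0454). Its 2 high-fat groups overlapped, and it no longer passed without BH-KO replicate 3 (adjusted p = 0.118), among other libraries. Sgk2, a kinase, ran the reverse way with an interaction of 1.80 ± 0.32 (adjusted p = 0.0139).

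Among genes with no single group apart, several were low in BH-KO, with both high-fat groups in between. Pnpla2, the triglyceride lipase ATGL, gave 83.6 to 107.8 CPM in BH-WT, from 43.1 to 46.8 in BH-KO, from 70.2 to 70.9 in BH-HF-WT and from 54.2 to 63 in BH-HF-KO (0.83 ± 0.15, adjusted p = 0.0153). Acaa1a, a peroxisomal thiolase of fatty acid oxidation, showed the same order of groups (1.10 ± 0.22, adjusted p = 0.0266). Mvk, mevalonate kinase of cholesterol synthesis, gave 11 to 22.6 CPM in BH-WT, from 5.72 to 6.3 in BH-KO and from 8.24 to 11.9 in the high-fat libraries (1.82 ± 0.33, adjusted p = 0.0152). Klb, the co-receptor of FGF21 and FGF15, gave 38.6 to 48.5 CPM in BH-WT, from 17.8 to 19.7 in BH-KO and from 21.5 to 29.5 in the high-fat libraries (1.51 ± 0.18, adjusted p = 0.00176). In each of these 4 genes BH-KO was the lowest group without overlap. Thrsp, a lipogenic regulator, instead gave 439.8 to 659 CPM in BH-WT, from 31.8 to 69.4 in BH-KO, from 695 to 1770.4 in BH-HF-WT and from 384 to 793 in BH-HF-KO (2.36 ± 0.57, adjusted p = 0.0481). Fbxo21 (2.22 ± 0.22, adjusted p = 0.000681), a ubiquitin ligase subunit, and Slc5a6 (1.97 ± 0.21, adjusted p = 0.00105), a vitamin transporter, had the smallest p-values of this kind.

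Sox9, a transcription factor of bile duct and progenitor cells, gave 2.66 to 3.8 CPM in BH-WT, 25.4, 56.3 and 62.4 in BH-KO, from 4.65 to 14.6 in BH-HF-WT and from 8.41 to 20.4 in BH-HF-KO (-3.58 ± 0.72, adjusted p = 0.028). Pkhd1, the gene of fibrocystin of the bile duct cilium, also had a negative interaction (-1.41 ± 0.27, adjusted p = 0.02). These were the 2 that passed among 9 tested cholangiocyte markers, beside 3.29% of all tested genes. Without BH-KO replicate 1, 4 of the 9 passed, all negative, beside 9.57% of all tested genes. The defining keratin Krt19 did not pass (1.71 ± 1.58, adjusted p = 0.568) and gave 6.34, 0.907 and 1.76 CPM in BH-KO and from 0.123 to 0.689 in the high-fat libraries. The summed level of the 9 markers was 112 to 176 CPM in BH-WT, from 189 to 426 in BH-KO, from 74.4 to 87.5 in BH-HF-WT and from 71.8 to 110 in BH-HF-KO, and its part in these results was not tested. Sox9 passed without BH-KO replicate 1, BH-HF-WT replicate 3 or BH-HF-KO replicate 3, and did not pass without any 1 of the other 9 libraries (adjusted p 0.0651 to 0.0766).

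The largest positive interactions belonged to major urinary protein genes, male-enriched liver products that bind pheromones. Mup16 (ENSMUSG00000078675, chromosome 4, 61515592 to 61519531) gave 56.1, 2.2 and 46.8 CPM in BH-WT and 0.564, 0.181 and 0.252 in BH-KO. It gave 49.8, 79.3 and 130.7 CPM in BH-HF-WT and 323, 273 and 145 in BH-HF-KO. BH-HF-KO was the highest group and BH-KO the lowest, and the interaction was 8.29 ± 1.49 (adjusted p = 0.02). Mup11, Mup12, Mup15 and Mup17 passed too, at 5.55 to 8.12. These genes are nearly identical copies, so their separate counts are uncertain, and BH-WT replicate 2 was far below the other BH-WT libraries in all 5. The imprinted noncoding RNAs Meg3 (5.91 ± 1.30, adjusted p = 0.0404) and Rian (6.02 ± 1.31, adjusted p = 0.039) gave 37.4 to 97.4 and 24.3 to 63.5 CPM in BH-WT, against 1.51 to 6.06 and 0.817 to 3.52 in BH-KO. In the high-fat libraries they ranged from 0.587 to 28.4 and from 0.235 to 18.3 CPM. Here BH-WT was above every other library. All 5 Mup genes, Meg3 and Rian failed to pass when some single libraries were left out. Their highest edgeR adjusted p in those fits ranged from 0.0653 (Mup16) to 0.13 (Mup12), with 0.102 for Meg3 and 0.1 for Rian.

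BH-WT stood apart for 16 genes. The 8 in which it was high were Slc22a27, Eepd1, Amigo2, Ttyh3, Rap2a, Srebf2, Nfkbia and Maf, and the 8 in which it was low were Atp6v0e2, Gldc, Kbtbd7, Cyb5r4, Plcb1, Fam98b, Arnt and Gm14165. They are listed because the group is small, the naming rule covering only 7 of them. Eepd1, an endonuclease-related protein, gave 68.3, 54.1 and 66.5 CPM in BH-WT, 17.2, 18 and 16.9 in BH-KO and from 15.1 to 30.5 in the high-fat libraries (1.92 ± 0.31, adjusted p = 0.00915). Slc22a27, an organic anion transporter, gave 14.3, 31.6 and 21.4 CPM in BH-WT and from 0.609 to 3.02 in the other 9 libraries (3.62 ± 0.68, adjusted p = 0.0188). Srebf2, the activator of cholesterol synthesis genes, gave 56.2 to 71.1 CPM in BH-WT and from 33.4 to 42.8 in the others (0.78 ± 0.18, adjusted p = 0.0388). Gldc, of the glycine cleavage system, gave 45.6 to 61.9 CPM in BH-WT and from 84.5 to 153 in the others (-1.41 ± 0.29, adjusted p = 0.0265). In these 4 genes BH-WT overlapped no other group.

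The WT livers of the other mouse line (H-WT, 3 libraries, 10 weeks, with the Hnf4a allele only), which the interaction did not use, were placed for each gene. For genes in which BH-WT stood apart, H-WT lay nearer to BH-WT than to the mean of the other 3 BH groups for 6 of the 8 high and 6 of the 8 low genes. For genes in which BH-KO stood apart, H-WT lay nearer to BH-KO for 0 of 111 high and 1 of 135 low genes, and for 1 and 6 without H-WT replicate 3. These genes were chosen with BH-WT among the groups lying together, and H-WT livers are also WT at 10 weeks. For them the placement is therefore no independent support, and it was not made over all tested genes.

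Genes that depend on HNF4A in hepatocytes behaved differently from clock genes in BH-KO replicate 1. Of 38 tested members, 1 passed (Hgfac, hepatocyte growth factor activator, 0.94 ± 0.23, adjusted p = 0.0489), beside 3.29% of all tested genes. The list median was 0.95, beside -0.04 over all tested genes. The median member stood at -0.02, -2.65 and -2.94 relative to the BH-WT mean in BH-KO replicates 1, 2 and 3, and at 0.20 to 0.44 in the high-fat libraries. Regardless of sign, the median distance was 0.47, 2.65 and 2.94 in the 3 BH-KO libraries. Without BH-KO replicate 1, 25 of the 38 passed, all positive, beside 12.2% of all tested genes. Baat, which conjugates bile acids to amino acids, gave 242 CPM in BH-KO replicate 1 against 13 and 14 in replicates 2 and 3, and 212 to 315 in the other 9 libraries. Its interaction was 1.62 (adjusted p = 0.494) with that library and 4.34 ± 0.21 (adjusted p = 1.88e-07) without it. Slc27a5, the bile acid CoA ligase, gave 460 CPM in BH-KO replicate 1 against 38.5 and 33.2, and 4.24 ± 0.25 without it. Baat in BH-KO replicate 1 thus lay within the range of the other groups, and Slc27a5 there lay below it.

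Genes of cytochrome P450 and drug metabolism had medians of 0.18, -2.51 and -2.74 in BH-KO replicates 1, 2 and 3. Regardless of sign, their median distance from BH-WT was 0.85, 2.51 and 2.74, beside 0.34, 0.49 and 0.46 over all tested genes, so members in replicate 1 were shifted in both directions. Of 52 tested members, 1 passed with all libraries (Cyp2d40, 4.03 ± 0.84, adjusted p = 0.0333), beside 3.29% of all tested genes. Without BH-KO replicate 1, 22 passed, 20 positive and 2 negative, beside 12.2% and 9.57% of all tested genes in that fit. Genes of the growth hormone and sex-biased list had medians of 0.55, -1.34 and -1.64. The median of 12 hepatocyte defining markers was 0.34, -1.40 and -1.44, and 0.12 to 0.30 in the high-fat libraries. None of these 12 passed with all libraries. Without BH-KO replicate 1, 6 of them passed, all positive, beside 12.2% of all tested genes. The 3 BH-KO libraries were thus alike in clock genes and differed among themselves in genes of hepatocyte function.

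**Figure D5:**
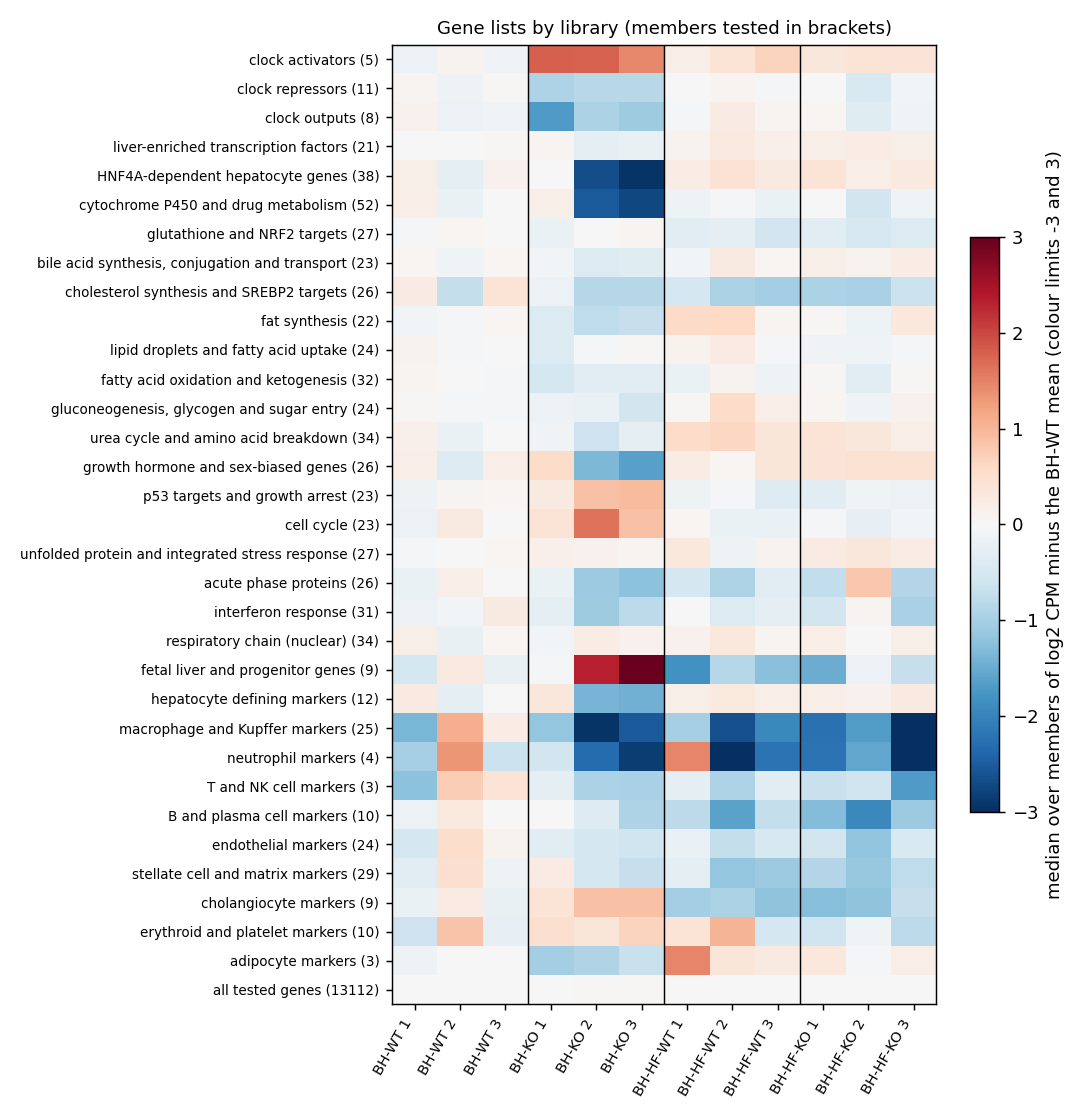
Median level of each of 32 gene lists (y axis, tested members in brackets) in each of the 12 libraries (x axis), as log2 CPM minus the BH-WT mean, by colour. Clock lists are shifted in all 3 BH-KO libraries, while HNF4A-dependent and cytochrome P450 genes have low medians in BH-KO replicates 2 and 3 and medians near 0 in replicate 1.

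Among markers of cell types other than hepatocytes, Sox9 and Pkhd1 were the 2 that passed the interaction test with all libraries. Of 25 tested macrophage and Kupffer cell markers 0 passed, beside 3.29% of all tested genes, and their median interaction was 1.14. Their summed level was 509 to 1840 CPM in BH-WT, from 282 to 746 in BH-KO, from 197 to 574 in BH-HF-WT and from 116 to 494 in BH-HF-KO, and their part in other results was not tested. The defining marker Clec4f had an interaction of 2.83 ± 0.96 (adjusted p = 0.137). None of the tested neutrophil (4), T and NK cell (3), B and plasma cell (10), endothelial (24), stellate cell (29), erythroid (10) and adipocyte (3) markers passed. The same held for the unfolded protein response (27 tested), acute phase proteins (26), interferon response (31) and nuclear-encoded respiratory chain (34). Without BH-KO replicate 1, 5 positive and 1 negative acute phase genes and 5 positive interferon genes passed. So did 2 negative genes each of the unfolded protein response and respiratory chain, 1 negative macrophage marker and 1 positive adipocyte marker. Over all tested genes in that fit, 12.2% were positive and 9.57% negative. These lists and the hepatocyte markers were pooled because no member passed with all libraries, so a low share of small p-values was partly built in. Of their 238 entries, 21 (8.82%) had an unadjusted p under 0.05 in edgeR, beside 2732 of the 13112 tested genes (20.8%). By list the share ran from 0% to 66.7% (adipocyte markers, 2 of 3), and it was 23.1% for acute phase proteins (6 of 26).

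Albumin, the main plasma protein made by hepatocytes, was lower in KO livers in both settings by counts. Alb took 6.69 to 8.48% of counts in BH-WT and 3.71, 2.36 and 1.79% in BH-KO. It took 6.18 to 7.71% in BH-HF-WT and from 2.68 to 3.72% in BH-HF-KO. In both settings KO was below WT without overlap. The KO effect on Alb was -1.76 at 10 weeks and -1.19 ± 0.43 in the high-fat setting (unadjusted p = 0.0184 in edgeR). In the high-fat setting it did not pass after adjustment. The interaction was 0.57 ± 0.61 (adjusted p = 0.627). This gene, at which the Cre allele sits, was looked at after its values were seen.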

How the data were processed

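Liver RNA of 18 libraries was aligned by the authors with STAR 2.6 to mm10, per the submitters' processing notes. The deposited values are raw read counts per gene, and no source used here names the counter or its strand setting, so close paralogs and overlapping or antisense genes are uncertain. Groups follow the labels. The interaction and 4 simple contrasts were fitted with edgeR 4.0.16 (R 4.3.3, robust quasi-likelihood test, TMM scaling, 1 mean per group, 12 libraries, 8 residual degrees of freedom) on 13112 genes kept by filterByExpr (minimum count 10), with Benjamini-Hochberg adjustment. Standard errors are the log2 change divided by the root of F. Library CPM use TMM-scaled totals; a floor of 3 counts is 0.251 to 0.454 CPM. Group means for the assignment of a driving group used log2 CPM with a prior count of 2. The fit was tested on simulated data.

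Genes named are Hnf4a, Arntl, passing clock genes, the 10 largest interactions per direction with at least 5 CPM in a group, the 3 smallest p-values per pattern and direction, and up to 3 passing members per list, or the 1 of smallest p where none passed. Others are named as examples or as said. The members, the 32 lists (709 genes, 637 tested) and the tests were chosen with earlier results of these data known. The place of each library between BH-WT and BH-KO, and the count of genes with both high-fat groups in between, were added after seeing the data. Same-numbered replicates did not deviate together, so no pairing was used. Alternatives included DESeq2 1.42.0, limma 3.58.1, other scalings and filters, and leaving out each library. Promoter sequences are from RefSeq (GRCm38.p6), matched by symbol for 9710 of 13111 tested symbols. A clock gene that the naming rule chose is counted but not reported here.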

Additional observations from a re-analysis of the deposited data

Results flagged for a closer look

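The KO effect differed between the 10-week and the high-fat setting, by the test of the difference itself, for 431 genes. Every value here is that interaction on the log2 scale, for genes past an adjusted p of 0.05 in edgeR, and no explanation was weighed.

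Among clock genes the interaction was negative for Arntl (-4.90), Cry1 (-3.49), Lonrf3 (-2.99) and Clock (-1.37). It was positive for Nr1d1 (4.91), Bhlhe41 (4.80), Dbp (4.41), Ciart (2.94), Nr1d2 (2.86), Per3 (2.64), Tef (1.94) and Usp2 (1.63).

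Members of the p53, cell cycle and glutathione lists with a negative value were Cdkn1a (-6.74), Gstm3 (-4.53), Gstm2 (-4.01), Ddit4 (-2.99), Btg2 (-2.41), Gstm1 (-2.32) and Mcm4 (-1.83). The value was also negative for Slco1a4 (-4.26), Lpl (-3.96), Chka (-3.43), Plin4 (-2.96) and Mal2 (-1.78). Other negative values were those of Nckap5 (-7.17), Grhl1 (-4.97), Hectd2os (-4.48), Tox2 (-4.21), Atp6v0e2 (-3.68), Igfbp1 (-3.59), Sox9 (-3.58), Pkhd1 (-1.41), Gldc (-1.41), Ppfia1 (-1.11) and Kbtbd7 (-0.70). Hectd2os lies antisense to Hectd2, which also had a negative value, and the counts of the pair may not be separate.

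Major urinary protein genes had positive values, namely Mup16 (8.29), Mup17 (8.12), Mup15 (6.79), Mup11 (6.64) and Mup12 (5.55), as did the noncoding Rian (6.02) and Meg3 (5.91). Members of the metabolic lists with a positive value were Slc2a5 (5.34), Cyp2d40 (4.03), Gys2 (2.94), Thrsp (2.36), Mvk (1.82), Slc2a2 (1.72), Asl (1.25), Acaa1a (1.10), Pnpla2 (0.83) and Srebf2 (0.78). The remaining positive values were those of Mcm10 (4.13), Slc22a27 (3.62), Fbxo21 (2.22), Cebpa (2.19), Amigo2 (2.02), Slc5a6 (1.97), Eepd1 (1.92), Sgk2 (1.80), Klb (1.51) and Hgfac (0.94).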

How the results depend on the processing

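No named gene reversed under any alternative run. Over single genes and settings, 1213 values kept their direction and side of the threshold, 314 lost the threshold and 13 gained it. The interaction count of 431 was 427 with DESeq2 size factors, 463 with upper-quartile factors, 443 with no filter, 422 with the stricter filter and 449 with limma-voom. With the DESeq2 test it was 942, the KO effect in the high-fat setting 1 gene, the setting effect in WT 1116, and the genes with a high-fat group apart 1. With all 18 libraries in the fit these were 851 for the interaction, 977 for the setting in WT and 1 for a high-fat group apart. The replicate block gave 265 and, for the setting in WT, 253; only 2 of 18 correlations between same-numbered libraries were over 0.1 (range -0.274 to 0.122), and 2 of 12 libraries correlated best with their own number, so the numbers do not pair the libraries. At an adjusted p under 0.01 there were 98 interactions (BH-KO apart for 66.3%), 1076 KO effects at 10 weeks, and setting effects for 55 genes in WT and 1548 in KO. With a log2 change of at least 1, the KO effect at 10 weeks counted 1308 and the setting effects 279 and 1694. A range limit of 1 over 4 left BH-KO apart for 42.2%, and one of 1 over 2 for 77.3% with a high-fat group apart for 3 genes. Without H-WT replicate 3, H-WT lay nearer to BH-KO for 1 high and 6 low genes. Leaving out single libraries, the interaction count ranged from 149 to 2859, the KO effect at 10 weeks from 1532 to 5324 and in the high-fat setting from 0 to 0. The setting effect ranged from 95 to 1386 in WT and from 2083 to 5228 in KO, the share with BH-KO apart from 57.3 to 65.2% and genes with a high-fat group apart from 0 to 2. The cause of these shifts was not tested. With 3 libraries a group, low-count genes are limited most.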

Other observations

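Some of the 431 genes lay side by side. Within 100 kb of another passing gene lay 76 of them, and 8 runs of at least 3 held 28 genes. The run of 5 held 4933431E20Rik, Gstm7, Gstm3, Gstm2 and Gstm1 on chromosome 3, and another held the noncoding RNAs Meg3, Rian and Mirg (5.82) on chromosome 12. A run on the same chromosome held Zfp839 (-2.01), Cinp (-1.48) and Tecpr2 (-1.56), all with a negative interaction. Whether runs of this size are more frequent than over all tested genes was not tested.

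Some list members with a large interaction did not pass. Hamp2, a relative of the iron hormone hepcidin, stood at -6.82 (adjusted p = 0.0708), Rsad2, an interferon-induced antiviral protein, at -1.93 (adjusted p = 0.0854), and Ern1, a sensor of unfolded proteins, at -0.87 (adjusted p = 0.0688), all by edgeR's quasi-likelihood test.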
